A study of Rattus norvegicus with 8 samples.

Results

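The genes described here encode the machinery of regulated exocytosis, the calcium-triggered fusion of stored vesicles with the cell surface. They were taken by gene name from the rat array: syntaxins, syntaxin-binding proteins, VAMPs, the SNAP family, synaptotagmins and synaptotagmin-like proteins, complexins, Unc13 and Cadps priming factors, Rab3 and Rab27 with their effectors, Napa and Nsf. The name search returned 91 of the 26257 genes on the array, and 78 of the 91 were measured, that is, had a probe well above background on 4 or more of the 8 arrays. Because it worked on names, it also returned 10 Rab GTPases numbered in the thirties and Snap91, a clathrin assembly protein. The 13 members that were not measured are named with their roles below.

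Messenger RNA was measured in the pituitary of Wistar rats that were nursing, on day 7 after giving birth. There were 4 samples from dams labelled only as control and 4 from dams exposed to 2,3,7,8-tetrachlorodibenzo-p-dioxin (TCDD), a persistent pollutant that binds the aryl hydrocarbon receptor. The labels used here do not give the dose, the day of exposure or what the control dams received. Each array holds 1 sample, and the labels do not say whether a sample is 1 animal, so the tests measure the spread between these samples.

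Hormone-secreting cells of the pituitary store their product in dense-core granules. A granule is brought to the membrane by Rab GTPases and their effectors, is primed by Unc13 and CAPS proteins, and fuses when SNARE proteins on granule and membrane (VAMPs on one side, syntaxins and SNAP-25 on the other) zip together. Synaptotagmins sense the calcium signal, complexins clamp and assist the SNAREs, and Nsf with its adaptor Napa takes the spent complexes apart again. In a lactating dam this is the pathway by which prolactin and the other pituitary hormones leave the cell.

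Levels are log2 signals relative to the 75th percentile of the same array, so 0 is the brightness of a fairly bright spot and each unit is a doubling. Between 71.1% and 73.9% of spots were well above background on the 8 arrays, no spot was saturated, and 17 of 17 markers of pituitary endocrine cells were well above background on every array. Of these markers, Fshb (-0.71) and Gnrhr (-0.52) were lower with TCDD and Pou1f1 (0.35) higher at an unadjusted p under 0.05 by limma. The other endocrine markers were not under 0.05, and none passed the threshold used below. The control samples were hybridised together on slide 1 and the exposed samples on slide 2, so an effect of the slide and one of exposure cannot be told apart. Red blood cell markers were higher with TCDD in 6 of 6 measured genes, by 0.45 to 1.39 with a median of 0.65. All 6 had an unadjusted p under 0.05 by limma, against 7.76% of all genes higher at that level. None passed the threshold used below. Their mean deviation was -0.68 to 0.24 in control arrays and -0.01 to 0.65 in TCDD arrays. Their summed level was 304 to 551 and 438 to 665. Markers of posterior lobe and neural tissue, which uses much of the same machinery, were measured for 10 of 12 genes, with Gfap not measured. Their mean deviation ran from -0.46 (control 4) to 0.41 in control arrays and from -0.31 to 0.09 in TCDD arrays, and their summed level from 3.23 to 7.39 and from 3.36 to 5.13. Of the 10 genes 4 were above 0 and 6 below. Only Avp (-1.41) had an unadjusted p under 0.05 by limma, and none passed the threshold used below. The part of either tissue in the results was not tested, and in whole tissue fewer cells of a type and less RNA per cell cannot be told apart.

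Most of the machinery was detected in the pituitary. Of the 91 genes, 73 (80.2%) were well above background on all 8 arrays, against 61.8% of all genes on the array. All 4 SNAP-25 family members, all 7 VAMPs, both recycling factors, all 6 Rab3 and Rab27 genes and the 3 Rab3 regulators were detected on every array. So were 14 of 15 syntaxins, 3 of 4 complexins, 5 of 6 priming factors, 11 of 16 synaptotagmins, 4 of 7 syntaxin-binding proteins and 5 of 10 synaptotagmin-like proteins and Rab effectors. The isoforms that were well above background on no array were Stx11, Stxbp4, Stxbp5l, Syt2, Syt10, Syt15 and Rph3a. A further 6 (Syt16, Sytl3, Sytl5, Rims4, Cplx4 and Rab32) reached it on 1 to 3 arrays and were not tested. Each gene that passed on no array was read by a single probe, and probes of one gene can differ in detection. For Rims2 one probe passed on 1 array and the other on all 8. A gene called not detected may therefore still be expressed.

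Several families thus had more than 1 isoform present. Among calcium sensors of the calcium-binding class, Syt1, Syt3, Syt5, Syt6, Syt7 and Syt9 were measured and Syt2 and Syt10, a pair expressed in brain, were not detected. Syt4, a granule synaptotagmin that does not sense calcium in the usual way, was also measured. Among Rab3 effectors, rabphilin (Rph3a) was not detected by its single probe. Its shorter relative Rph3al (Noc2), which is characteristic of endocrine cells, was measured on every array. Snap25 and its widely expressed relative Snap23, all 4 Rab3 genes and both Rab27 genes were present together.

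**Figure D1:**
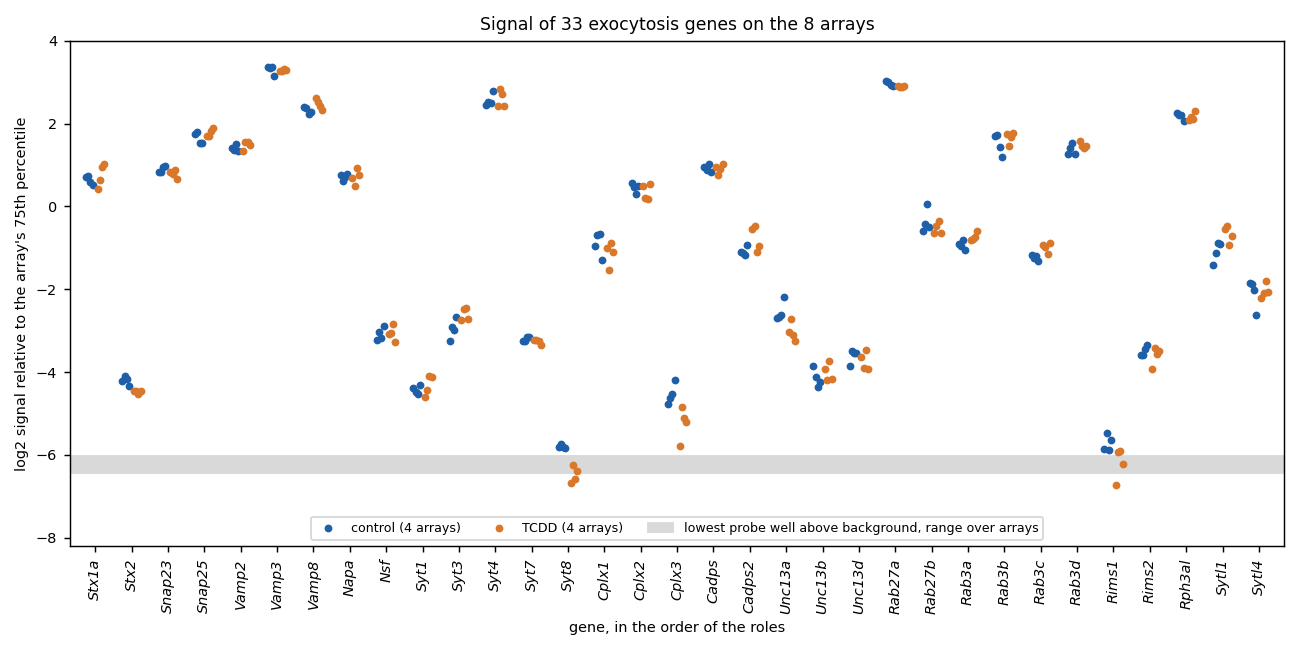
Log2 signal relative to the 75th percentile of the array (vertical axis) for 33 exocytosis genes (horizontal axis) on the 4 control (blue) and 4 TCDD (orange) arrays, 1 point per array. The grey band runs from -6.44 to -6.03, the lowest probe well above background on each array. Syt8 lies above it on control arrays only. The groups lie apart for Syt8, Stx2, Cplx3, Unc13a, Rab3c and Rims1 and overlap for the other genes shown.

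Which isoform dominates cannot be read from brightness, because probes of one gene differ widely in brightness. For 11 of the members more than 1 probe was measured, giving 13 pairs, and the brighter probe of a pair exceeded the other by 1.09-fold to 127-fold (median 5.70-fold). In 13 of 13 pairs the brighter probe was the one nearer the 3′ end of the gene, against 77.9% of 2545 pairs over all genes on the array. The widest gap was in Rph3al, whose probes read 2.17 and -4.82 on average over 8 arrays. The first 30 of each probe's 60 bases are shown because both target the same transcript in the same tissue and yet differ 127-fold, at rn4 chr10:63179957-63180016 and chr10:63184463-63184522, both on the minus strand.
Rph3al, brighter probe: ctgctggcagaagacaaacttcactatttc
Rph3al, dimmer probe: gacagacctatgccctctgggatcaagggc
Gaps of this kind were also seen for Cadps (0.91 and -4.71), Cplx1 (-1.02 and -5.60) and Syt4 (2.58 and -1.92). The gap was smaller for Snap25 (1.71 and 0.30). Levels are therefore compared below only within a probe, between the groups of arrays.

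**Figure D2:**
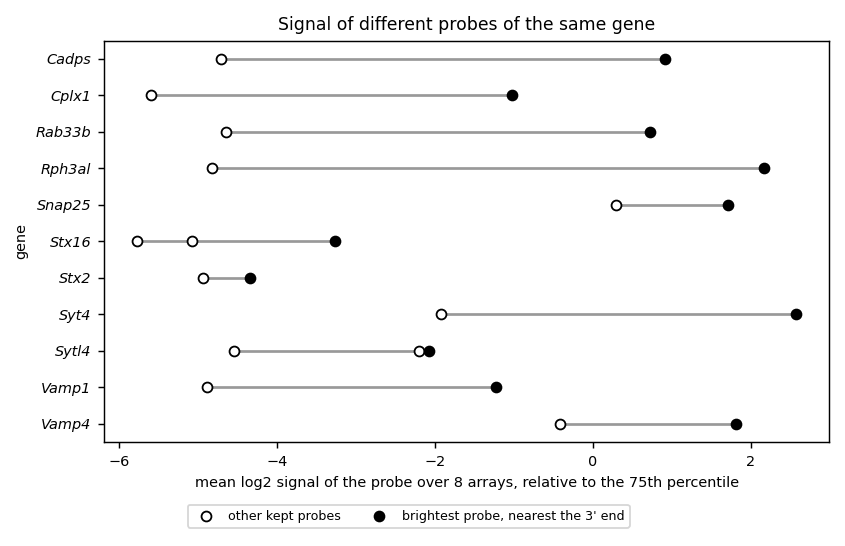
Mean log2 signal over 8 arrays (horizontal axis) of each measured probe of the 11 exocytosis genes (vertical axis) with more than 1 measured probe. The filled point is the brightest probe, which is nearest the 3′ end in each of the 13 pairs; the open points are the other probes of the gene, up to 127-fold dimmer.

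No exocytosis gene differed between control and TCDD dams at an adjusted p of 0.05 (limma, Benjamini-Hochberg over 17361 genes), where 0.0806% of all genes did (0.0576% higher and 0.023% lower). At an unadjusted p under 0.05 there were 9 of 78 (11.5%), against 10.7% of all genes. Of these, Syt3, Rab3a, Rab3c and Sytl1 were higher with TCDD (5.13%, against 7.76% of all genes) and Stx2, Syt8, Cplx3, Unc13a and Rims1 were lower (6.41%, against 2.95%). The share of lower genes counts Syt8 and Rims1, which were measured at all only through their 4 control arrays. Among the 73 genes detected on all 8 arrays, 4 were higher (5.48%, against 7.52% of all genes so detected) and 3 were lower (4.11%, against 2.79%).

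The changes as a whole were small. The median change was 0.016 on the log2 scale, against 0.020 over all genes, and 41 members lay above 0 (52.6%, against 56.4% of all genes) and 37 below. Under the 4 other ways of scaling the arrays the number above 0 ran from 34 (median centring) to 40 (normexp). No overall direction is therefore given. Quantile normalization (38 above 0) and the deposited table (37) gave nearly equal changes and are not separate checks. Changes ran from -0.71 (Cplx3) to 0.57 (Unc13c), and 65 of 78 were under 0.25 in size. For 59 of the 78 the 95% interval lay within 0.5 of 0, and for all but Cplx3 and Unc13c it lay within 1, a doubling. The values on all arrays of 1 group lay beyond those of the other for 7 members (8.97%, against 7.1% of all genes), with Stx12 and Rab3c higher (2.56%, against 5.19%) and the same 5 lower genes (6.41%, against 1.91%). Among genes detected on all 8 arrays 2 members lay apart as higher (2.74%, against 5.21%) and 3 as lower (4.11%, against 1.84%).

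**Figure D3:**
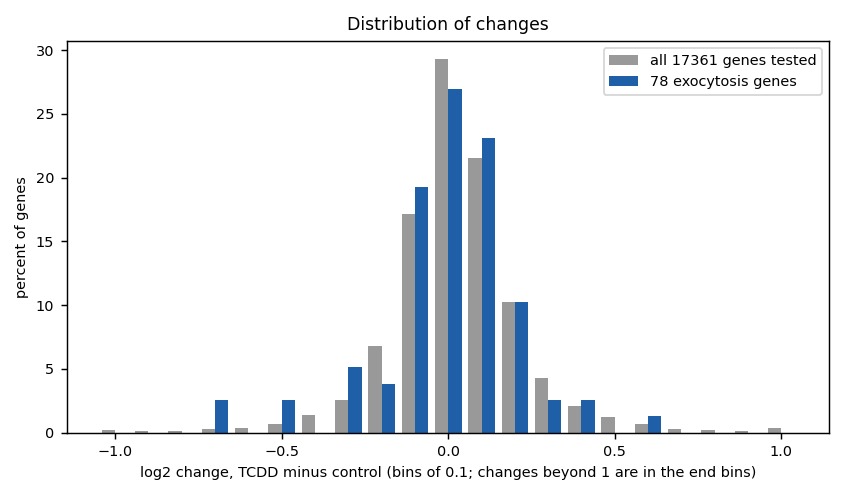
Share of genes (vertical axis, percent) by log2 change, TCDD minus control (horizontal axis, bins of 0.1), for the 78 measured exocytosis genes (blue) and all 17361 genes tested (grey). Both distributions centre near 0, with medians of 0.016 and 0.020.

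**Figure D4:**
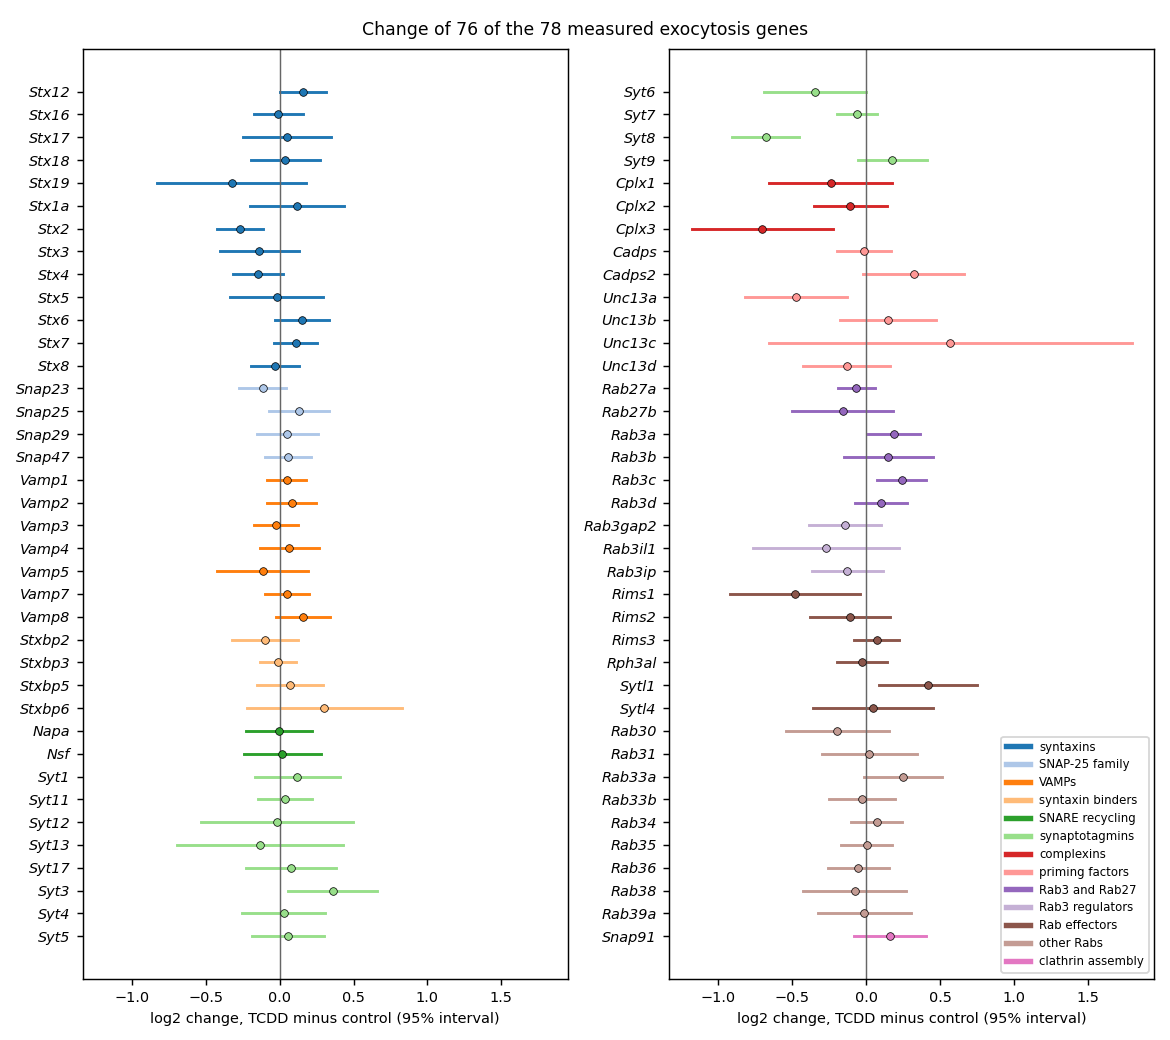
Log2 change, TCDD minus control (horizontal axis), of 76 of the 78 measured exocytosis genes (vertical axis), with its 95% interval from limma and coloured by role. Most intervals cross 0; those of Stx2, Syt8, Cplx3, Unc13a and Rims1 lie below it and those of Syt3, Rab3a, Rab3c and Sytl1 above it, before adjustment for the number of genes tested.

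The membrane SNAREs that drive hormone release overlapped between the groups. Snap25, the membrane SNARE of neurons and endocrine cells, read 1.74, 1.80, 1.53 and 1.52 on control arrays 1 to 4 and 1.69, 1.71, 1.83 and 1.88 on TCDD arrays 1 to 4. The groups overlapped, and the change was 0.13 ± 0.09 (SE; 95% interval -0.07 to 0.33; limma, adjusted p = 0.659). Its partner Stx1a read 0.71, 0.74, 0.58 and 0.52 in control dams and 0.42, 0.63, 0.95 and 1.03 with TCDD. The TCDD arrays spanned both the lowest and the highest Stx1a value, and the change was 0.12 ± 0.14 (SE). Snap23, the widely expressed form of SNAP-25, differed by -0.11 ± 0.07 (SE).

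Of the 14 measured syntaxins, which serve constitutive, endosomal and Golgi traffic as well as granule release, 7 were above 0 and 7 below, with a median of 0.00. Stx2, a syntaxin of the plasma membrane, was lower in TCDD dams. It read -4.22, -4.10, -4.16 and -4.35 on control arrays and -4.46, -4.45, -4.53 and -4.46 on TCDD arrays, so every TCDD value lay below every control value. The change was -0.27 ± 0.07 (SE; 1.20-fold; adjusted p = 0.290 by limma; exact permutation p = 0.029, two-sided, the smallest that 4 against 4 allows). A second Stx2 probe went the other way, with a change of 0.17, and the mean of both probes changed by -0.05. The probe used lies at rn4 chr12:28773290-28773349 and the other at chr12:28772122-28772181, both on the plus strand, and the first 30 bases of each are shown because their signs differ.
Stx2, probe used: attggcttgacggttggcaaatgattgcgt
Stx2, other probe: acgtggagcacgccaaggaagagactaaga

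Stx12, a syntaxin of endosomes, was the only syntaxin whose TCDD arrays all lay above the control arrays. Control arrays read 0.32, 0.32, 0.33 and 0.14, and TCDD arrays 0.38, 0.42, 0.39 and 0.54. The change of 0.16 ± 0.07 (SE) had an adjusted p of 0.470 by limma and an exact permutation p of 0.029, and the gene was chosen for mention after its values were seen.

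The vesicle SNAREs were tightly measured. Vamp2, the vesicle partner of Snap25 and Stx1a, read 1.41, 1.37, 1.50 and 1.34 in control dams and 1.33, 1.57, 1.55 and 1.49 with TCDD. The groups overlapped and the change was 0.08 ± 0.07 (SE; 95% interval -0.08 to 0.25). Vamp3, a widely expressed relative used in recycling, differed by -0.02 ± 0.07 (SE), and Vamp8, a SNARE of exocrine and other secretory granules, by 0.16 ± 0.08 (SE). Of the 7 VAMPs 5 were above 0 and 2 below, with a median of 0.05. The counts held under each of the 5 scalings, of which quantile normalization and the deposited table are nearly the same. None of the 7 had an unadjusted p under 0.05.

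The proteins that recycle the SNAREs and the syntaxin-binding proteins showed no difference past the threshold. Of the 5 measured syntaxin-binding proteins 3 were above 0 and 2 below, with a median of 0.07, and under normexp 1 was above 0 and 4 were below. Nsf, the ATPase that unwinds used SNARE complexes, differed by 0.02 ± 0.11 (SE), and its adaptor Napa (alpha-SNAP) by -0.0040 ± 0.10 (SE). The sign for Nsf flipped under 4 of the 4 other scalings and that for Napa under normexp. Napa overlapped fully between groups, with 0.76, 0.61, 0.70 and 0.78 in control dams and 0.68, 0.49, 0.92 and 0.75 with TCDD. Stxbp6, which binds SNAREs without driving fusion, was well above background on 7 arrays and differed by 0.30 ± 0.23 (SE; -0.0024 under normexp).

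Among the calcium sensors the measured genes split, 7 above 0 and 5 below, with a median of 0.03. For the 6 of the calcium-binding class the median was 0.09 and for the other 6 it was 0.0044. Syt1, the fast sensor of synaptic vesicles and granules, differed by 0.12 ± 0.13 (SE; -0.0048 under normexp), Syt7, a slow high-affinity sensor, by -0.06 ± 0.06 (SE), and Syt4 by 0.03 ± 0.12 (SE; -0.010 under median centring). Syt3, a calcium-binding synaptotagmin, was higher with TCDD. It read -3.25, -2.91, -2.99 and -2.68 on control arrays and -2.74, -2.47, -2.45 and -2.73 on TCDD arrays. Control 4 reached into the TCDD range and the other 3 control arrays lay below it. The change was 0.36 ± 0.13 (SE; 1.28-fold; adjusted p = 0.403 by limma; exact permutation p = 0.086).

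Syt8, a synaptotagmin that lacks the usual calcium-binding residues, had the smallest unadjusted p of the members. Its signal was -5.81, -5.74, -5.80 and -5.82 on control arrays and -6.69, -6.24, -6.58 and -6.39 on TCDD arrays. The control values sat close together just above the detection limit, and the TCDD values all lay below them. The probe passed the background limit on all 4 control arrays and on 0 of 4 TCDD arrays, a pattern shared by 0.0576% of all measured genes. TCDD dams have only a bound. From the group means it was 1.33-fold lower than in control dams, without allowance for the spread between arrays. The fitted change was -0.68 ± 0.10 (SE; 95% interval -0.91 to -0.45; adjusted p = 0.089 by limma). The gene was tested only because its control arrays passed the filter, which favours a difference in this direction. With arrays weighted by their quality the adjusted p of limma was 0.0427, and over the 18 alternatives that tested the gene it ran from 0.0427 to 0.844. Under normexp background correction, which adds an offset of 50 to every spot, the change was -0.04. The probe lies at rn4 chr1:202685739-202685798 on the plus strand. Its first 30 bases are shown with those of the Rims1 probe at chr9:21091375-21091434 on the minus strand, since these are the only members detected in all control arrays and in no TCDD array.
Syt8: gaagggcacaactaacccctacttcaacga
Rims1: gatcctttgtatcagcagtccctggttttt

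**Figure D5:**
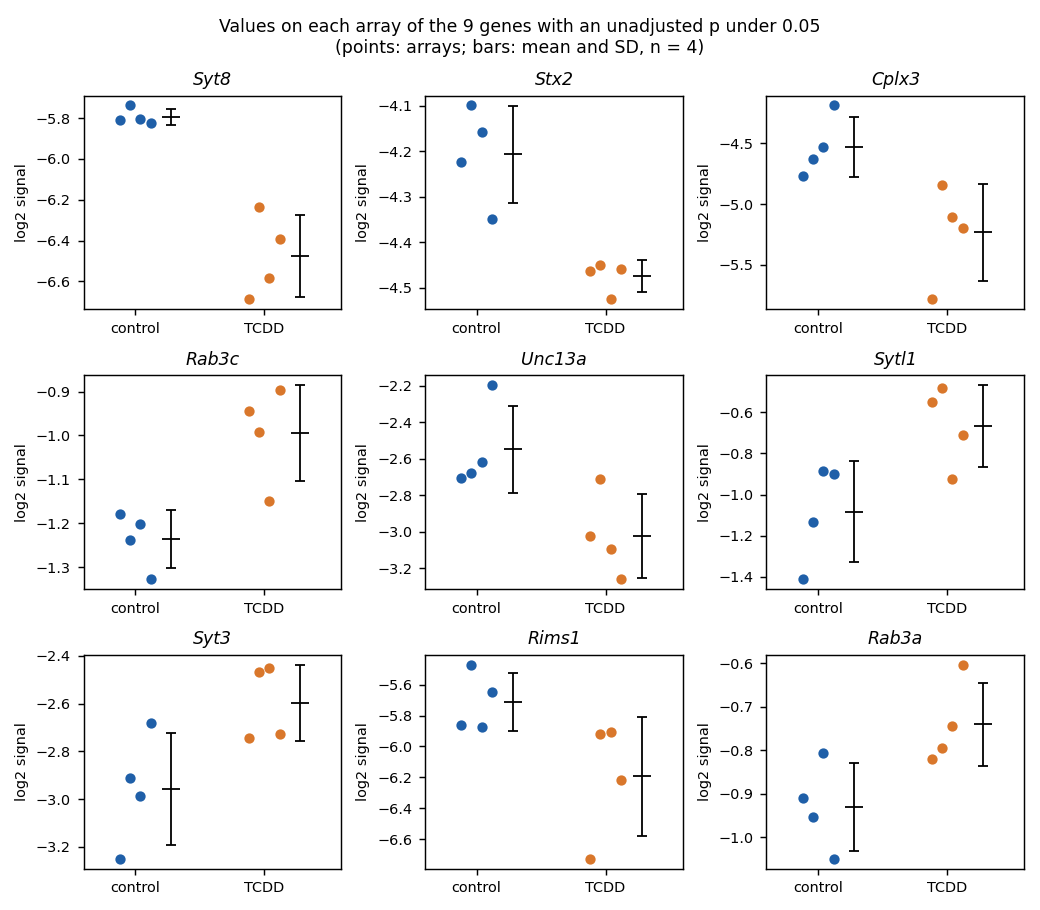
Log2 signal relative to the 75th percentile (vertical axis, its own range in each panel) on the 4 control (blue) and 4 TCDD (orange) arrays for the 9 genes with an unadjusted p under 0.05, with mean and SD as bars. The groups lie apart for Syt8, Stx2, Cplx3, Rab3c, Unc13a and Rims1 and touch or overlap for Sytl1, Syt3 and Rab3a.

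All 3 measured complexins were lower with TCDD, where 56.4% of all genes lay above 0. The signs held under each of the 5 scalings of the same arrays, though quantile normalization and the deposited table are nearly the same scaling. No complexin passed the threshold. Cplx3, a complexin best known from retina and ribbon synapses, had the largest fitted decrease of the 78 measured members. Its values were -4.77, -4.63, -4.53 and -4.19 on control arrays and -5.79, -4.84, -5.11 and -5.20 on TCDD arrays. All TCDD values lay below all control values, though TCDD 2 and control 1 differed by little, and TCDD 1 was the lowest. The change was -0.71 ± 0.21 (SE; 1.63-fold; 95% interval -1.18 to -0.23; adjusted p = 0.321 by limma; exact permutation p = 0.029), and it was -0.22 under normexp. Cplx1 and Cplx2, the complexins of neurons and endocrine cells, differed by -0.24 ± 0.18 and -0.11 ± 0.11 (SE). Cplx1 ran from -1.30 to -0.67 in control dams and from -1.54 to -0.90 with TCDD, so the groups overlapped. Without TCDD 2 its change was -0.10, and that of Cplx2 was -0.05 without TCDD 3.

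Of the priming factors 3 of 6 were above 0 and 3 below. Unc13a (Munc13-1), the neuronal form that opens syntaxin for SNARE assembly, was lower with TCDD. It read -2.70, -2.68, -2.62 and -2.20 on control arrays and -3.03, -2.71, -3.10 and -3.26 on TCDD arrays. The highest TCDD value (TCDD 2) came close to the lowest control value without crossing it, and control 4 stood above the rest. The change was -0.47 ± 0.15 (SE; 1.39-fold; adjusted p = 0.350 by limma; exact permutation p = 0.029).

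The other Munc13 genes lay on both sides of 0. Unc13b, a widely expressed form, differed by 0.15 ± 0.14 (SE), and Unc13d, which serves granule release in blood cells, by -0.13 ± 0.13 (SE). Unc13c varied so much between arrays (SD 0.65 in control and 1.05 in TCDD dams, n = 4 each) that its change of 0.57 ± 0.53 (SE) could be anything from -0.66 to 1.80 at 95%. Cadps, the CAPS protein of dense-core granules, differed by -0.01 ± 0.08 (SE; 0.034 under normexp). Its relative Cadps2 read -1.11, -1.13, -1.17 and -0.94 in control dams and -0.54, -0.46, -1.11 and -0.95 with TCDD. TCDD 1 and TCDD 2 stood above all other arrays while TCDD 3 and TCDD 4 lay in the control range, and the change was 0.32 ± 0.15 (SE; adjusted p = 0.501 by limma).

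Of the 6 Rab3 and Rab27 genes, grouped here as 1 role, 4 were above 0 (66.7%, against 56.4% of all genes) and 2 below. The 4 were the Rab3 genes, whose GTPases dock granules, and the 2 the Rab27 genes, whose GTPases tether granules to the cell cortex. The signs held under each of the 5 scalings of the same arrays, though quantile normalization and the deposited table are nearly the same scaling. No gene of either family passed the threshold. The change of Rab27b was -0.02 without control 3, and that of Rab3b was 0.04 without control 4. Rab3c read -1.18, -1.24, -1.20 and -1.33 on control arrays and -0.94, -0.99, -1.15 and -0.90 on TCDD arrays. Every TCDD value lay above every control value, TCDD 3 by the least, and the change was 0.24 ± 0.07 (SE; 1.18-fold; adjusted p = 0.326 by limma; exact permutation p = 0.029). Rab3a, the main form of neurons, read -0.91, -0.95, -0.81 and -1.05 on control arrays and -0.82, -0.79, -0.74 and -0.60 on TCDD arrays. Control 3 reached the lower TCDD values, and the change was 0.19 ± 0.08 (SE; 1.14-fold; adjusted p = 0.439 by limma; exact permutation p = 0.057). Rab3b, a form abundant in anterior pituitary, differed by 0.15 ± 0.13 (SE) and Rab3d, known from exocrine granules, by 0.10 ± 0.08 (SE).

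Rab3 paralogues resemble each other in sequence. The probes for Rab3a and Rab3b share the longest unbroken stretch found between probes of different members, 13 of 60 bases. Most of the bases printed beside that stretch also match, so the probes are more alike than it alone shows. Bases 20 to 49 of the Rab3a probe (rn4 chr16:19190472-19190531, minus strand) and bases 5 to 34 of the Rab3b probe (chr5:130283528-130283587, plus strand) are shown, with the shared stretch in capitals.
Rab3a: cctttgaaCGTCTGGTGGACGtgatctgtg
Rab3b: ccttcgagCGTCTGGTGGACGccatctgcg
Whether a probe binds the transcript of the other gene was not tested.

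Rab27a was evenly measured. It read 3.03, 2.99, 2.92 and 2.90 in control dams and 2.90, 2.88, 2.89 and 2.90 with TCDD, where the SD was 0.0073. TCDD 1 to TCDD 3 lay just below the lowest control array (2.89985) and TCDD 4 (2.90018) just above it. The change was -0.07 ± 0.05 (SE). Rab27b, the form prominent in secretory cells, ran from -0.59 to 0.07 in control dams and from -0.65 to -0.34 with TCDD and differed by -0.16 ± 0.15 (SE). The 3 measured genes grouped here as Rab3 regulators were all below 0, where 56.4% of all genes lay above 0. This held under each of the 5 scalings of the same arrays, though quantile normalization and the deposited table are nearly the same scaling. The 3 genes are Rab3gap2 (-0.14 ± 0.11, SE), a subunit of the complex that switches Rab3 off, and Rab3ip (-0.13 ± 0.10, SE) and Rab3il1 (-0.27 ± 0.21, SE). None had an unadjusted p under 0.05.

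Effectors that link Rab proteins to the release site differed in both directions, 3 above 0 and 3 below. Sytl1, a synaptotagmin-like effector of Rab27, read -1.41, -1.13, -0.89 and -0.90 on control arrays and -0.55, -0.48, -0.93 and -0.71 on TCDD arrays. TCDD 3 fell within the control range and the other TCDD arrays lay above it. The change was 0.42 ± 0.14 (SE; 1.33-fold; adjusted p = 0.384 by limma; exact permutation p = 0.086). Sytl4 (granuphilin), a granule-docking effector of endocrine cells, differed by 0.05 ± 0.18 (SE), and Rph3al by -0.03 ± 0.07 (SE).

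Rims1, a Rab3-binding scaffold of the active zone, was the second member detected in control arrays only. Its values were -5.86, -5.47, -5.87 and -5.64 on control arrays and -6.73, -5.92, -5.91 and -6.22 on TCDD arrays. The groups did not overlap, but TCDD 2 and TCDD 3 lay only just under the lowest control array. From the group means the bound was 1.27-fold lower with TCDD, without allowance for the spread between arrays. The fitted change was -0.48 ± 0.19 (SE; 95% interval -0.92 to -0.04; adjusted p = 0.436 by limma). This interval also held changes smaller than the bound. The gene was tested only because its control arrays passed the filter, and the change was -0.07 under normexp. Its relatives Rims2 and Rims3, detected on every array, differed by -0.11 ± 0.12 and 0.07 ± 0.07 (SE).

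The genes returned by name only were also close to 0. The 9 measured Rab GTPases of the thirties, which serve traffic outside granule release, ran from -0.19 (Rab30) to 0.25 (Rab33a) with a median of -0.01, and Snap91 differed by 0.16 ± 0.11 (SE). None had an unadjusted p under 0.05. Without these genes 68 members were measured, with a median change of 0.02.

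Other parts of the secretory route were read beside the members. Of 40 partners in the vesicle membrane and release-site scaffold 34 were measured, 20 above 0 and 14 below, with a median of 0.04 and none past the threshold. At an unadjusted p under 0.05 there were 7 (20.6%, against 10.7% of all genes). Sypl1 (0.26), Syngr1 (0.46) and Sv2c (0.30), membrane proteins of vesicles, and Ppfia3 (0.17), a liprin scaffold, were higher. Rimbp2 (-0.30), which ties Rim proteins to calcium channels, Ppfia1 (-0.18), another liprin, and Doc2b (-0.47), a calcium sensor for slow release, were lower. Syp (synaptophysin), the common marker of secretory vesicles, differed by 0.08 ± 0.08 (SE).

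The exocyst, the complex that tethers vesicles to the membrane, had 11 of 12 genes measured, 7 above 0 and 4 below, with a median of 0.0043. The SNAREs of the Golgi and endoplasmic reticulum had 10 of 12 genes measured, 7 above 0 and 3 below, with a median of 0.07. In neither list did a gene have an unadjusted p under 0.05, although Sec22a (0.12) was higher on every TCDD array than on any control array.

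TCDD acts through a receptor that binds the core motif GCGTG, preceded in its usual site by T and any base. Promoter sequences of 300 bases from RefSeq (GRCr8) were matched for 74 of the 91 members, and TNGCGTG was found on either strand in 2 of them (2.70%), Stx11 and Vamp1, against 5.45% of 27457 promoters. Stx11 was not detected, and Vamp1 differed by 0.05 ± 0.06 (SE). The match is a description of the letters in this window.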

How the data were processed

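Total RNA of 8 pituitary samples was labelled with Cy3, per the labels' protocols, and read on 1-colour Agilent arrays of 60-base probes. Per the file headers, Agilent Feature Extraction (version 10.7.1.1) quantified the images. The deposited processed signals are linear intensities after background subtraction, computed array by array, and rn4 is the build of the probe coordinates, per the file headers. The authors' deposited value table holds intensities with the same median (56.3) in each array and served as an alternative. How that table was scaled is not stated in the sources used here. On the other arrays 99.3% to 99.5% of its ranked values equalled those of control 1, a pattern that quantile normalization gives. The table is therefore not a check separate from quantile normalization.

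Members were the non-control spots whose gene name matched the families named in the report. They comprised 172 spots, 109 probes and 91 genes. Members, gene lists and roles were chosen with earlier results of these data known. Names were updated through a RefSeq table (GRCr8, names only). Strand was read from the order of the deposited coordinates, and no genome was used, so exon and UTR positions are not given.

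From the log2 of each processed intensity the 75th percentile of its array, over non-control spots, was subtracted. Outlier spots were set to missing and spots of a probe averaged. A probe was kept if well above background on 4 or more arrays, and the kept probe brightest over all arrays stood for its gene. Groups, 4 control and 4 TCDD, were compared in R 4.3.3 by limma (version 3.58.1; lmFit, then eBayes), two-sided, with Benjamini-Hochberg adjustment over 17361 genes and a threshold of 0.05. Single genes also had an exact permutation test over 70 assignments. A gene below the background limit on each array of a group has a bound, taken from the bright group's mean. That mean is set against, per array of the dim group, the higher of the lowest well-above-background signal and the gene's own. The bound carries no sampling error. Marker values are mean deviations from each gene's mean over arrays (log2) and sums of linear levels relative to the 75th percentile.

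The genes named are a list of core members, those past the threshold, those detected in 1 group only, and up to 6 in each direction by size among those with an unadjusted p under 0.05. Values of 2 measured members are not reported here, although they stay in the counts. Others are named where a count of 5 or fewer asks for it. The fit was tested on simulated data. The 19 alternatives covered background, scaling, filter, probe summary, outliers, variance model, weights of arrays, the authors' deposited table, a block for the replicate number, and leaving out each array. The number of arrays limits the precision.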

Additional observations from a re-analysis of the deposited data

Results flagged for a closer look

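In 4 of the 66 groups of 4 arrays looked at for the named genes (6.06%, where chance gives about 5%), 1 array stood far from the other 3. The figure given for each is that array's gap to its nearest neighbour as a share of the group's whole range. Vamp3 on control 4 read 3.15 where the next control array read 3.35 (share 0.945). Unc13d on control 1 read -3.85 against -3.53 (0.871). Syt7 on TCDD 4 read -3.36 against -3.25 (0.840), and Stx2 on TCDD 3 read -4.53 against -4.46 (0.840). For Vamp3, Unc13d and Syt7 the gap was wider than the change between the groups (-0.02, -0.13 and -0.06). For Stx2 it was narrower than the change (-0.27).

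Signal also appeared in probes too dim to be tested. Cplx4, a complexin of the retina, read -4.75 on TCDD 1, where the highest control array read -8.33. On TCDD 2 to 4 it read -8.33, -8.46 and -8.71. Rims4, a short Rim isoform, read -5.95 on TCDD 1, where the highest control array read -6.41. On TCDD 2 to 4 it read -7.00, -6.90 and -7.42. Each of these probes was well above background on 1 TCDD array and on no control array. The reverse held for Syt16 and Sytl5, each well above background on 1 control array and on no TCDD array. These differences were not tested.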

How the results depend on the processing

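With the 19 alternatives, 25 of the 33 named genes kept the sign of their change throughout, among them all 9 with an unadjusted p under 0.05. The other 8 named genes had changes of at most 0.12. Those 9 were picked by their change relative to its spread in the same arrays, so their kept signs add no support. Syt8 and Rims1 were tested in 18 alternatives, and under normexp their changes shrank to -0.04 and -0.07. The number of exocytosis genes called was 0 in each alternative but array weights, where it was 1 (Syt8), with 7 to 12 at an unadjusted p under 0.05. Over all genes, 14 were called, against 1 with quantile normalization, 9 with median centring, 0 with normexp (1922 at an unadjusted p under 0.05), 4 with a variance trend, 30 with array weights, 1 with the deposited table and 0 to 11 with 1 array left out. The cause was not tested. The replicate numbers, which give the array's position on its slide, do not pair the samples (correlation of deviations -0.096 to -0.019). With the number as a block 0 genes were called (1514 at an unadjusted p under 0.05), members included (8), and 0 of 4 control arrays correlated best with their own number. The median change of the members was -0.0227 with median centring, -0.0135 with the deposited table and -0.011 to 0.029 with 1 array left out, below 0 without TCDD 3.

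Signs turned as follows. Quantile normalization gave Nsf -0.0091. Median centring gave Nsf -0.0194 and Syt4 -0.0101. Normexp gave Napa 0.0388, Nsf -0.0114, Syt1 -0.0048 and Cadps 0.0339. The mean of a gene's probes gave Cadps 0.0289 and Rph3al 0.0174, and array weights gave Napa 0.0204 and Sytl4 -0.0840. The deposited table gave Nsf -0.0137. With 1 array left out, Napa ran from -0.0756 to 0.0709, Nsf from -0.0577 to 0.0918, Syt4 from -0.0538 to 0.10, Cadps from -0.0514 to 0.0400, Rims2 from -0.17 to 0.0016 and Sytl4 from -0.13 to 0.12. For Syt8 and Rims1, which lie at the detection limit, signal over background limits what can be said, and with probes required on all 8 arrays they were not tested.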
